A study of Mus musculus with 4 samples.

Results

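The transcriptome of DMSO-cultured pachytene spermatocytes (Ctrl) was described from both of its libraries, with no comparison to the treated cells. The members were the gene symbols with a mean Ctrl level above 1 TPM, which were 9509 of the 23420 symbols listed (40.6%). TPM (transcripts per 1000000) divides the reads of a gene by its length and scales all libraries to the same sum, so levels of different genes can be set side by side. The study had 4 RNA-seq libraries of pachytene spermatocytes, 2 with DMSO and 2 with AZ20, an inhibitor of the ATR kinase. The 2 Ctrl libraries came from testes of wild-type adult C57BL/6 mice (23 weeks of age), from cells sorted by FACS with a DNA dye and then kept for 24 h in medium with DMSO and no inhibitor, with 15000 cells taken for each library. They show sorted and cultured cells, and uncultured cells or other stages were not analysed here. With 2 libraries and no second group in use, no test was made, and each value below is given for Ctrl replicate 1 and Ctrl replicate 2 in that order, or as mean ± SD (n = 2).

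Pachytene spermatocytes are germ cells in the long middle stage of meiotic prophase I. Their homologous autosomes are joined by the synaptonemal complex while recombination is completed, and the X and Y chromosomes, which have little homology, are held in a silent chromatin domain. The stage is also known for a burst of transcription of autosomal genes, among them many whose products serve later, in spermatids and sperm.

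The reads behind each TPM value were recovered as whole numbers, with totals of 13962658 in replicate 1 and 15847778 in replicate 2. In a transcript of 1 kb, 3 reads were worth 0.297 TPM in replicate 1 and 0.260 TPM in replicate 2, so a gene listed at 0 could have had up to about that level. Eno1, a gene that every cell uses, was listed at 0 in both libraries, so 0 is given as listed and not as absence. Over 14 housekeeping genes, 13 were above 1 TPM, and the other, the X-linked Hprt, had 0 and 0.835 TPM. Of all symbols, 8444 were listed at 0 in both libraries (36.1%) and 5467 were above 0 with a mean of 1 TPM or lower. A level above 1 TPM was reached in each library by 8840 of the 9509 members. The other 669 were above 1 TPM in 1 library only. The members nearest the threshold were close to the genes outside it, with 195 genes from 1 to 1.1 TPM and 163 genes from 0.9 to 1 TPM.

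The cells carried the 5 marker genes of the stage at high levels. Sycp3, a protein of the lateral elements of the synaptonemal complex, had 2061 and 2424 TPM. Ldhc, the lactate dehydrogenase of the male germline, had 6056 and 5827 TPM and ranked 10 among all genes. Hspa2, a testis-enriched member of the HSP70 chaperones, had 1389.8 and 995 TPM. Pgk2, the autosomal phosphoglycerate kinase of the testis, had 120.1 and 73.2 TPM, and Piwil1, which encodes the PIWI protein MIWI, had 86.9 and 87.99 TPM. All 5 lay far above the median of the expressed genes, which was 11.3 TPM. The library with the lower Sycp3 was the one with the higher Pgk2 and Hspa2, and Piwil1 differed by less than 2 TPM between the libraries.

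The stretches upstream of the start sites of these markers are shown because the markers define the cells. They were taken from RefSeq on GRCm38.p6, 250 bases up to the base before the annotated start, on the strand of the gene. Capitals mark AACGG or its reverse complement CCGTT, letters that are part of the sequence bound by MYB proteins. The positions were chr10:88459337-88459586 (plus strand) for Sycp3, chr7:46861013-46861262 (plus) for Ldhc, chr17:40208610-40208859 (minus) for Pgk2, chr12:76404120-76404369 (plus) for Hspa2 and chr5:128735996-128736245 (plus) for Piwil1.
Sycp3: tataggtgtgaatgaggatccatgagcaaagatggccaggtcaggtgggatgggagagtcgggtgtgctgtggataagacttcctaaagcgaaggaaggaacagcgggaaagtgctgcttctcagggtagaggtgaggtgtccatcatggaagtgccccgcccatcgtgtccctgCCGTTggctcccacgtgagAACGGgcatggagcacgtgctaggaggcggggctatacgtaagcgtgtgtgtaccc
Ldhc: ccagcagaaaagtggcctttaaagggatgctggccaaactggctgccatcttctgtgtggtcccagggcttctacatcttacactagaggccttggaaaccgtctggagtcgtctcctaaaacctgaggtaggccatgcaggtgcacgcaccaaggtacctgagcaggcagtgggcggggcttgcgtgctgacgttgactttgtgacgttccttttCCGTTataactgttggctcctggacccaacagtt
Pgk2: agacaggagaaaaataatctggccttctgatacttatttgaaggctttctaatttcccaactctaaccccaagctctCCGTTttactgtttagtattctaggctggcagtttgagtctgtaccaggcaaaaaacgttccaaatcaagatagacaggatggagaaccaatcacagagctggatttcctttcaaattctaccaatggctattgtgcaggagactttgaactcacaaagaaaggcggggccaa
Hspa2: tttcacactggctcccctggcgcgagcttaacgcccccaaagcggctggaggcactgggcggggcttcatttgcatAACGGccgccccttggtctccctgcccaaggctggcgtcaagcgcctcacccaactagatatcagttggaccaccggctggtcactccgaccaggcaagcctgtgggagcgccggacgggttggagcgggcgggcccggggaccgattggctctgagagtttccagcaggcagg
Piwil1: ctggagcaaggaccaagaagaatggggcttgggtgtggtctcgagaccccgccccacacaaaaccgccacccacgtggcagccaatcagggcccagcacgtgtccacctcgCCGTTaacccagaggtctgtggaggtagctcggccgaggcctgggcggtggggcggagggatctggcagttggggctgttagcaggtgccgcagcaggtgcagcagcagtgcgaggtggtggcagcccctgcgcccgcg

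Each of the 5 stretches held the AACGG letters at least once. The first base of the match lay 34 bases before the start in Ldhc, 139 in Piwil1, 173 in Pgk2 and 174 in Hspa2, and Sycp3 had matches at 75 and 56 bases. In the GENCODE annotation each of the 5 genes starts within or upstream of its stretch, so the bases next to the RefSeq start can be transcribed. By those gene starts the matches of Ldhc, Hspa2 and Piwil1 lie inside the gene. The matches of Sycp3 and Pgk2 lie before it. The same letters, on either strand, were in 16.3% of the 16338 upstream stretches of protein-coding genes and in 22.6% of the 7210 that belong to expressed genes. These letters were searched after the promoters had been looked at, and a match is not a measured binding site. Mybl1, which encodes the MYB protein of spermatocytes (A-MYB), was itself expressed with 15.3 and 11.6 TPM.

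A small part of the expressed genes held most of the TPM. The 10 highest genes held 10.4% ± 0.452 (SD, n = 2), the 50 highest 24.1% ± 0.942, the 100 highest 33.6% ± 0.880, the 500 highest 65.8% ± 0.414 and the 1000 highest 79.7% ± 0.0224 of each library. On the mean of the libraries, 242 genes were enough for 50% of the TPM. Mostly shared genes led in both libraries, with 8 of the 10 highest, 88 of the 100 highest and 941 of the 1000 highest in common. Above 1000 TPM stood 203 genes with 46.4% of the TPM. A further 1288 genes between 100 and 1000 TPM held 39.8%, 3518 genes between 10 and 100 TPM held 11.9%, and 4500 genes between 1 and 10 TPM held 1.80%. The most abundant transcripts were short. The median length was 836 bases above 1000 TPM, against 2873 bases between 1 and 10 TPM. Counted as reads, without division by length, the 100 highest genes held 25.1%.

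**Figure D1:**
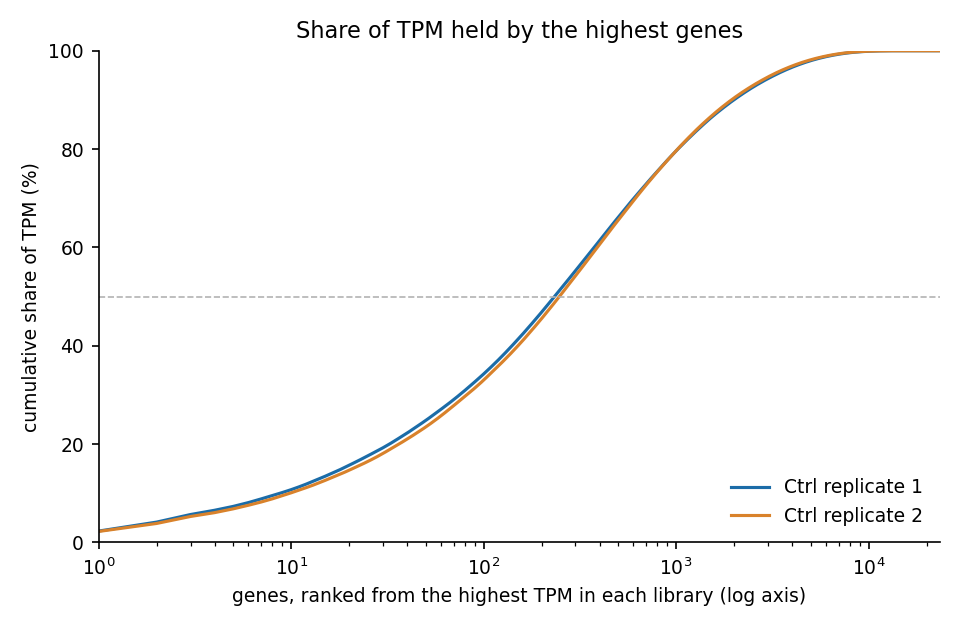
Cumulative share of TPM (%, vertical axis) against the number of genes, ranked from the highest level in each library (log axis), with 1 line for each Ctrl library and a dashed line at 50%. The lines lie close together, and the 100 highest genes hold 34.3% in replicate 1 and 33.0% in replicate 2.

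The highest transcript was Calm2, 1 of the genes for calmodulin, a calcium-binding regulator, with 23104 and 22349.9 TPM, which is 2.27% of the total. It was followed by Gstm5, a glutathione S-transferase, with 18249.8 and 16233 TPM and by Fabp9, the fatty acid binding protein of the testis, with 15406 and 14228 TPM. These 3 genes made up 5.48% of the TPM, and their order was the same in each library. Tmsb10, which binds actin monomers, came next with 8653 and 7743 TPM, a level that H3f3b matched in replicate 2.

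Germline genes and genes of every cell stood side by side among the 30 highest, which together held 18.6% of the TPM. Meig1, which is needed for sperm formation, had 7534 and 6341 TPM. Cetn1, the centrin of the testis, had 6838 and 5555 TPM, and Rsph1, of the radial spokes of cilia and flagella, had 4279.9 and 4228 TPM. Tex40, also known as Catsperz and part of the calcium channel of the sperm tail, had 4098 and 3239.7 TPM. Of general genes, the histone variant genes H3f3b and H2afz had 5558 and 7764 TPM and 3101 and 3619 TPM, the ubiquitin gene Ubb had 4523 and 6665 TPM, the cochaperone gene Ptges3 had 5793 and 4663 TPM and the metallothionein gene Mt1 had 4415 and 3341 TPM. H3f3b and Ubb were higher in replicate 2, and Mt1 was higher in replicate 1, but none of the 30 differed 2-fold between the libraries. The 30 also held 6 subunits of the respiratory chain (Uqcrq, Ndufc1, Cox4i1, Ndufb8, Ndufa12 and Cox8c), with 3.10% of the TPM, and the ribosomal protein genes Rpl41, Rpl24 and Rpl35. The list was completed by Serf1, Hsbp1 and the selenoprotein gene Sepw1, and by 4 gene models known only by a clone or model number, which were Gm3925 (5650.0 and 4937 TPM), Gm5617 (5815 and 3896 TPM), 4732415M23Rik (4867 and 4108 TPM) and 1700008K24Rik (3901 and 3158 TPM).

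Genes that build and run meiotic prophase were on. Over 5 lists of meiotic genes, 87 of 97 members were above 1 TPM (89.7%, against 40.6% of all symbols) and 24 were above 100 TPM (6.37% of all symbols). The lists follow the roles of the genes and were drawn up from textbook knowledge, with earlier results of these data known.

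The chromosome axis and the synaptonemal complex, which zips the homologs together, were the highest of these lists, with 12 of 14 members above 1 TPM and a median of 249 TPM. Its central element genes Syce1 and Syce2 had 1204 and 1363 TPM and 909 and 945 TPM, the transverse filament gene Sycp1 had 357 and 392 TPM, and the axis genes Hormad1 and Sycp2 had 951 and 1208 TPM and 186 and 159 TPM. The cohesin subunits of meiosis were uneven. Smc1b had 240.1 and 222 TPM and Stag3 had 43.8 and 38.2 TPM, whereas the kleisin genes Rec8 (0 and 0.633 TPM) and Rad21l (0.179 and 0.157 TPM), each the ring-closing subunit of a meiotic cohesin, were the members below 1 TPM.

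Recombination genes were mostly on but at lower levels, with 19 of 23 listed members above 1 TPM and a median of 9.63 TPM. Psmc3ip, which encodes the strand-exchange cofactor HOP2, stood apart with 1439.9 and 1651 TPM, while its partner gene Mnd1 had 7.14 and 5.85 TPM. The crossover genes Cntd1 and Ccnb1ip1 had 155 and 147 TPM and 115 and 142 TPM. Spo11, the enzyme that makes the programmed double-strand breaks, was still present with 89.2 and 94.6 TPM. The members below 1 TPM included genes of early prophase. Prdm9, which places the breaks, had 0.315 and 0.0251 TPM, Mei1 had 0.869 and 0.782 TPM, Mei4 was listed at 0 in both libraries, and Dmc1, the meiotic strand-exchange protein, had 0 and 0.356 TPM.

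Regulators of the coming divisions were already transcribed. Of 20 such genes, 19 were above 1 TPM, with a median of 31.1 TPM. Cks2, a small CDK partner, had 408 and 452 TPM, Ccnb2 had 298 and 431 TPM, the checkpoint gene Mad2l1 had 247 and 288 TPM and the kinase gene Aurka had 139 and 127 TPM. Cdk1 had 56.4 and 86.7 TPM and Ccna1, the cyclin A of male meiosis, had 17.3 and 14.8 TPM. Plk1 (5.17 and 7.71 TPM), Aurkb (1.22 and 2.13 TPM) and Cdc25c (1.38 and 2.14 TPM) were low, and Cdc25b was near 0 (0.0315 and 0 TPM). Between the libraries, 14 of the 19 were higher in replicate 2, and none by 2-fold.

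The list of ATR signaling and silencing factors had 20 of 21 members above 1 TPM, with a median of 13.0 TPM. Atr, the kinase that drives silencing of the sex chromosomes, had 93.2 and 85.1 TPM and its activator Topbp1 had 15.8 and 16.3 TPM. H2afx, whose product is phosphorylated on the silent chromatin, had 28.7 and 26.5 TPM, and its reader Mdc1 had 5.81 and 5.13 TPM. The paralogous clamp genes Rad9b and Hus1b, at 32.2 and 32.98 TPM and 18.5 and 30.6 TPM, were above Rad9a and Hus1, at 1.89 and 0.551 TPM and 4.87 and 4.11 TPM, while Rad1, which has no such copy in the list, had 46.98 and 80.2 TPM. The other kinase genes were low, with Atm at 2.104 and 1.36 TPM, Chek1 at 4.23 and 3.06 TPM and Chek2, the member below 1 TPM, at 0.9703 and 0.617 TPM. The histone methyltransferase gene Setdb1 had 14.3 and 11.8 TPM.

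The piRNA pathway, which silences transposons with small RNAs and is most active at this stage, was on, with 19 of 21 genes above 1 TPM and a median of 43.5 TPM. Gtsf1, an essential partner of PIWI proteins, had 2765 and 2549 TPM, Mael had 1283 and 1404 TPM and the RNA helicase genes Ddx25 and Ddx4 had 1076 and 1298 TPM and 647 and 648 TPM. Piwil2 had 30.8 and 30.1 TPM, below Piwil1. Piwil4, the PIWI gene of fetal germ cells, was listed at 0 in both libraries, and the transcription regulator gene Gm13718 (Btbd18) had 0.197 and 0 TPM.

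Of 18 germline transcription regulators, 16 were above 1 TPM. Tbpl1, a TBP-related factor, had 262 and 275 TPM, Crem, which drives spermatid genes, had 135 and 139 TPM, Tcfl5 had 148 and 120.5 TPM and the bromodomain gene Brdt had 87.7 and 95.6 TPM. Gm1564 (Meioc), which keeps cells in meiotic prophase, had 83.8 and 80.9 TPM, and Rfx2, a regulator of ciliary genes, had 38.7 and 33.7 TPM. Fhl5, the coactivator of CREM also called ACT, was the exception in its spread, with 25.5 and 2.82 TPM.

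**Figure D2:**
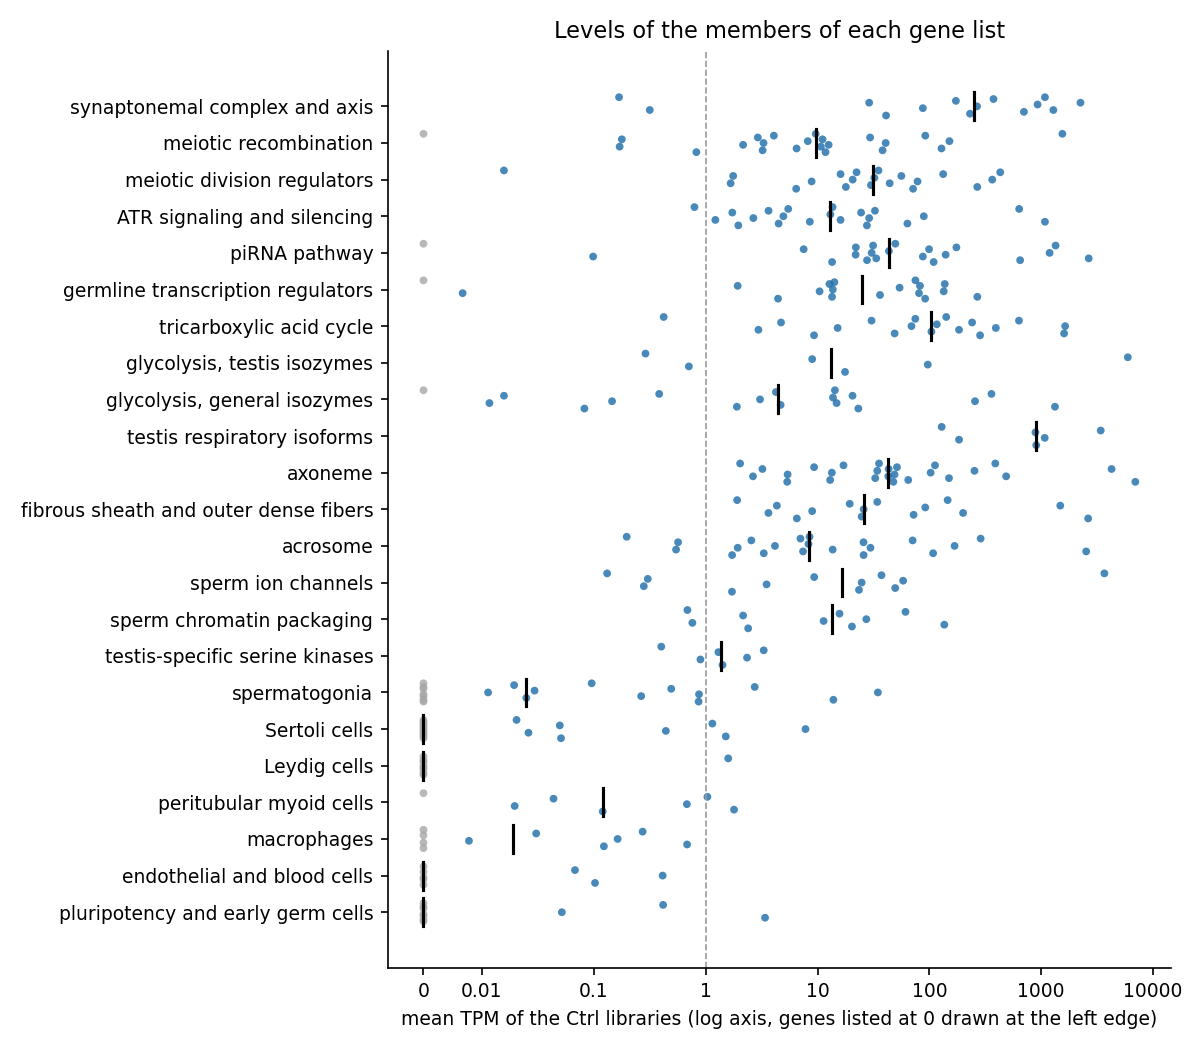
Mean TPM of the Ctrl libraries (log axis) for each member of 23 gene lists, with 1 point for each gene, genes listed at 0 drawn in gray at the left edge, a black bar at the median of each list and a dashed line at 1 TPM. The meiotic, metabolic and sperm lists have their medians above 1 TPM, from 1.36 TPM for the testis-specific serine kinases to 895 TPM for the testis respiratory isoforms, and the lists of other cell types have theirs at 0.120 TPM or lower.

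Mitochondrial respiration took a large share of the transcriptome. Subunit genes of complexes I, III, IV and V, chosen by their symbols, held 9.16% of the TPM, with 73 of 80 above 1 TPM and 63 above 100 TPM. Of all symbols, 40.6% were above 1 TPM and 6.37% above 100 TPM. The complex I genes alone had a median of 701 TPM, and the highest, Ndufc1, had 7806 and 6460.0 TPM. Uqcrq of complex III had 7869 and 7327 TPM and Cox4i1 of complex IV had 4839 and 4928 TPM. The ribosomal protein genes held less, 5.28% of the TPM over 83 genes with a median of 505 TPM. Genes for mitochondrial ribosomal proteins were above 1 TPM in 76 of 76 cases.

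Where the testis has its own form of a respiratory gene, that form was the higher one in each of the 5 pairs of isoforms compared. All 6 testis forms were above 100 TPM. Cox8c had 3529 and 3275 TPM against 16.002 and 16.4 TPM for Cox8a, and Cyct, the testis cytochrome c, had 1076 and 1073 TPM against 9.27 and 20.2 TPM for Cycs. Cox7b2 had 953 and 822 TPM, and the X-linked Cox7b was near 0 (0 and 0.0866 TPM). Slc25a31, the ADP/ATP carrier of the germline, had 120.1 and 137 TPM against 1.08 and 0.941 TPM for Slc25a4. The smallest ratio was between Cox6b2 (904 and 900.2 TPM) and Cox6b1 (84.8 and 86.3 TPM). The sixth testis form, Pdha2 of pyruvate dehydrogenase, had 190.3 and 178 TPM and was set beside Pdhb, the subunit it works with, at 493 and 771 TPM.

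The enzymes that feed the chain were unequal. Of 19 genes of the tricarboxylic acid cycle and pyruvate dehydrogenase, 18 were above 1 TPM, with a median of 104 TPM and the highest levels in Sucla2 (1666 and 1605 TPM) and Sdhb (1562 and 1638 TPM). Fumarase Fh1 (1.94 and 3.98 TPM) and Ogdh (4.87 and 4.57 TPM) were low, and Suclg2, the GTP-forming counterpart of Sucla2, had 0.0435 and 0.799 TPM. Fatty acid oxidation was lower, with 8 of 14 genes above 1 TPM, none above 100 TPM and a median of 3.61 TPM. Hadhb had 80.04 and 79.3 TPM, and of the carnitine palmitoyltransferases the brain form Cpt1c (6.21 and 5.34 TPM) was above Cpt1a (0.184 and 0.0202 TPM) and Cpt1b (0 and 0.0899 TPM).

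Glycolysis rested on a few transcripts. Of 18 general isozymes, 12 were above 1 TPM, with a median of 4.46 TPM, and 3 were above 100 TPM: the muscle-type mutase Pgam2 with 1266 and 1388 TPM, Ldha with 369 and 349 TPM and Tpi1 with 215 and 297 TPM. The hexokinase Hk1 (4.901 and 3.595 TPM) and the pyruvate kinase Pkm (3.36 and 2.77 TPM) were low. Gapdh had 11.4 and 17.2 TPM and Eno1 was listed at 0 in both libraries. Only unique alignments were kept by the authors, and reads of genes with near-identical copies are then lost before counting, so low values of such genes are uncertain. Of the testis isozymes, Ldhc and Pgk2 were high, Gapdhs had 12.2 and 5.73 TPM and Eno4 had 15.2 and 20.03 TPM, and the aldolase retrogenes Aldoart1 (0.5796 and 0 TPM) and Aldoart2 (1.196 and 0.2202 TPM) had means below 1 TPM. Among carriers, the lactate carrier partner Bsg had 563 and 822 TPM and the glucose carrier Slc2a3 had 224 and 233 TPM. Slc2a1, the common glucose carrier, had 0.193 and 0.438 TPM, and the lactate carrier Slc16a7 (28.3 and 19.6 TPM) was above Slc16a1 (1.77 and 3.996 TPM).

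Transcripts of many genes for parts of the sperm were present in these libraries. Over 6 lists of sperm structures, 80 of 90 members were above 1 TPM (88.9%, against 40.6% of all symbols). Above 100 TPM were 18 of the 90 (6.37% of all symbols were). Together the lists held 2.54% of the TPM. The medians were highest for the tail and lower for the head. The 26 axoneme genes, for the motile core of the tail, were all above 1 TPM with a median of 43.1 TPM, the 15 listed genes of the fibrous sheath and outer dense fibers had a median of 25.8 TPM, and the 21 acrosome genes had a median of 8.31 TPM. In bulk RNA a few cells with high levels and many cells with low levels cannot be told apart.

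In the axoneme, after Meig1 and Rsph1, the central apparatus gene Spag6 had 504 and 467 TPM, the tektin gene Tekt1 had 375 and 402 TPM and the dynein intermediate chain gene Dnaic1 had 106 and 99.2 TPM. Heavy chain genes of dynein were lower, from 54.3 and 40.98 TPM for Dnahc8 to 3.29 and 2.01 TPM for Dnahc2. In the fibrous sheath and outer dense fibers, Spa17 had 2909.7 and 2343 TPM, Ropn1l had 1360.1 and 1599.8 TPM and Odf2 had 221 and 179.6 TPM, but Odf1, the main outer dense fiber protein, had 3.95 and 4.71 TPM and the sheath anchor Akap3 had 5.44 and 1.84 TPM. In the acrosome, the vesicle over the sperm head, the protease inhibitor gene Spink2 had 2731 and 2312 TPM, proacrosin Acr had 295 and 279 TPM and Zpbp2 had 169 and 167 TPM. Izumo1, which binds the egg, had 2.85 and 2.26 TPM, and Spam1 had 2.84 and 0.6102 TPM. Of the channel genes, Tex40 was far above the rest. The auxiliary CatSper genes Catsperb (56.5 and 42.5 TPM) and Catsperd (24.3 and 22.6 TPM) were above the pore genes Catsper1 (0.481 and 0.126 TPM), Catsper3 (2.35 and 1.09 TPM) and Catsper4 (0.459 and 0.1004 TPM), with Catsper2 (59.01 and 57.5 TPM) the pore gene that was high.

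Of 10 genes that pack sperm DNA, 8 were above 1 TPM, with a median of 13.5 TPM. Tnp2, a transition protein gene, had 191 and 81.02 TPM and Tnp1 had 44.4 and 10.2 TPM, and the protamine genes Prm1 and Prm2 had 83.001 and 39.2 TPM and 30.3 and 10.3 TPM. The spermatid linker histone gene Hils1 had 14.8 and 7.84 TPM. Hist1h1t, the linker histone of mid and late pachytene cells, had 0 and 1.52 TPM and H1fnt had 0.523 and 0.8499 TPM, both with a mean below 1 TPM. The paper uses the H1T protein as a marker of mid to late pachytene cells, so the low RNA value of Hist1h1t is not read as absence. Of 6 testis-specific serine kinase genes, which act in late spermatids, 4 were above 1 TPM and the highest, Tssk2, had 5.36 and 1.25 TPM.

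The libraries differed in part of these late genes. The log2 ratio of replicate 1 to replicate 2, on log2(TPM + 1), had an SD of 0.51 over the 9509 expressed genes, and 372 were at least 2-fold higher in replicate 1 (3.91%) and 177 in replicate 2 (1.86%). Among the 80 expressed genes of the sperm lists, 19 were at least 2-fold higher in replicate 1 (23.8%) and none in replicate 2. In 65 of the 80 replicate 1 was the higher library by any amount, against 54.8% of all expressed genes. Among the 87 expressed genes of the meiotic lists, none differed 2-fold in either direction, and among the 73 respiratory genes none did. By list, the genes at least 2-fold higher in replicate 1 were 5 of 8 in chromatin packaging, 6 of 15 in the fibrous sheath and outer dense fibers, 6 of 18 in the acrosome, 2 of 4 in the testis-specific serine kinases, 0 of 26 in the axoneme and 0 of 9 in the ion channels. The median log2 ratio was 1.14 in the packaging list and −0.15 in the synaptonemal complex list. Summed over the packaging genes, replicate 1 had 392 TPM and replicate 2 had 164 TPM. Of the 90 sperm genes, replicate 1 had 56 above 10 TPM and replicate 2 had 47. Whether the libraries differed in their share of later cells was not tested.

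**Figure D3:**
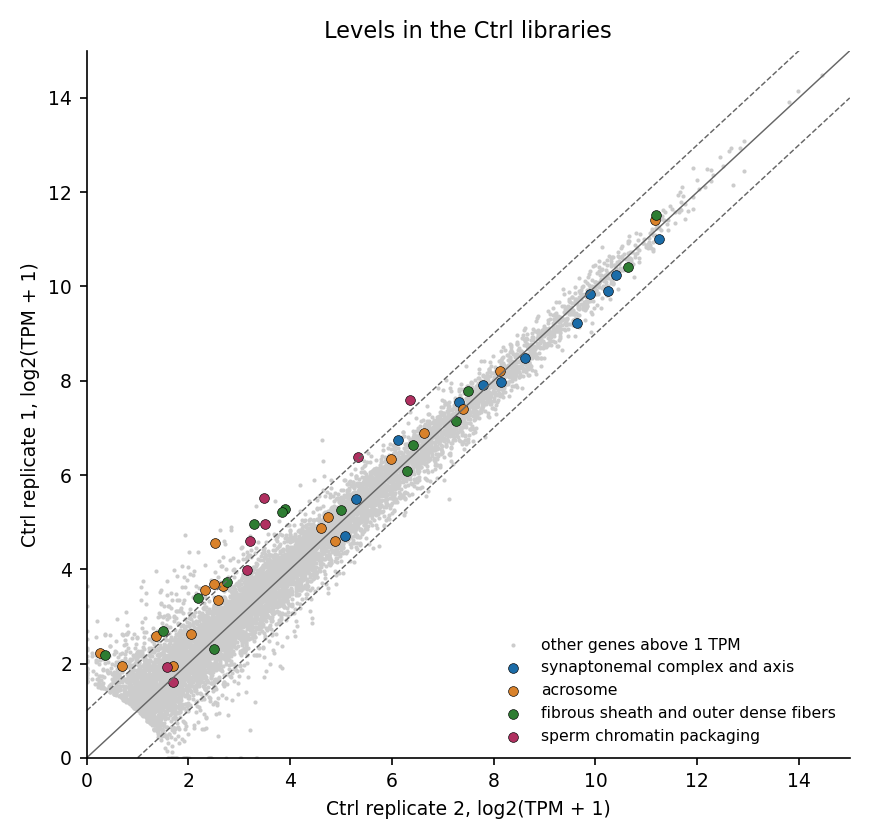
Level in Ctrl replicate 1 against Ctrl replicate 2, on log2(TPM + 1), for the 9509 expressed genes (gray) and the expressed members of 4 gene lists (colors). The solid line marks equal levels and the dashed lines a 2-fold difference. The synaptonemal complex genes lie within the dashed lines, and 5 of 8 chromatin packaging genes lie above the upper one.

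The 10 genes with the largest log2 ratio toward each library, among the 5009 genes with a mean above 10 TPM, were of different kinds. Toward replicate 1 they were Fhl5 (25.5 and 2.82 TPM), the high mobility group gene Hmgb4 (105 and 23.7 TPM), Tnp1, the acrosomal Spaca7 (22.5 and 4.78 TPM), Rnf151 (19.6 and 3.58 TPM), the cystatin gene Cst8 (39.5 and 9.002 TPM), Iqcf1 (28.6 and 6.15 TPM), Gm9999, 1700019M22Rik and 1700013G24Rik. Several of these are known from spermatids. Toward replicate 2 they were the linker histone gene H1f0 (44.03 and 139 TPM), the transfer RNA modification gene Qtrt1 (6.23 and 20.4 TPM), the mitochondrial elongation factor gene Tsfm (5.04 and 16.1 TPM), H2-Ke6, 2810428I15Rik, the ferritin gene Ftl1 (5.93 and 16.6 TPM), Uchl1 (7.604 and 20.1 TPM), Pigx, Sdhaf1 (21.5 and 52.4 TPM) and Crip2. Above 10 TPM the spread was smaller, with 62 genes at least 2-fold higher in replicate 1 and 28 in replicate 2.

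Programmes of other cells were silent or nearly so. Genes that mark the other cells of a testis (Leydig, Sertoli and myoid cells, macrophages, endothelium and blood) numbered 53, of which 6 were above 1 TPM and 29 were listed at 0 in both libraries. Their summed level was 14.6 TPM in replicate 1 and 21.8 TPM in replicate 2. Among Sertoli cell genes, the defining Sox9, Wt1, Gata4, Fshr and Clu were listed at 0, and 3 of 19 had a mean above 1 TPM. These were the protease gene Ctsl, which many cell types express, with 4.58 and 11.04 TPM, Dhh (1.34 and 1.68 TPM) and Vim (0.594 and 1.70 TPM). Among Leydig cell genes, 8 of 9 were listed at 0, among them Cyp17a1 and Insl3, and Star had 0.866 and 2.31 TPM. None of 10 macrophage genes and none of 8 endothelial and blood genes had a mean above 1 TPM. The smooth muscle genes Tagln (1.9996 and 1.59 TPM) and Actg2 (1.28 and 0.791 TPM) were the myoid genes above 1 TPM. By replicate 1 alone, 0 Leydig and 1 macrophage gene (Cd68, 1.28 and 0.086003 TPM) passed 1 TPM, and by replicate 2 alone 1 myoid gene did.

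The programme of the cells from which spermatocytes arise was also low. Of 19 spermatogonial genes, 3 were above 1 TPM, and Stra8, which starts meiosis, Sohlh1, Dmrt1, Sall4 and Nanos2 were listed at 0. Kit had 0.191 and 0 TPM and Zbtb16 had 0.0388 and 0 TPM. The exceptions were Id4, known from stem cells of the testis and from spermatocytes, with 35.1 and 34.2 TPM, Uchl1 with 7.604 and 20.1 TPM and Sohlh2 with 2.83 and 2.66 TPM. By replicate 1 alone 5 of the 19 passed, with Dnmt3b (1.28 and 0.461 TPM) and Egr4 (1.27 and 0.454 TPM) added. Of 10 genes of pluripotency and early germ cells, Pou5f1, Nanog, Sox2 and Prdm14 were among 7 listed at 0, and Dppa4 had 2.33 and 4.46 TPM. Of 17 genes of liver, muscle and neurons, 3 were above 1 TPM, and the highest, the apolipoprotein gene Apoa2, had 3.804 and 6.32 TPM. By replicate 2 alone, 1 of these 17 passed.

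Large gene families of sense organs, skin and defense were off. Over 9 families, 33 of 1778 genes were above 1 TPM (1.86%) and 1617 were listed at 0 in both libraries. They were 7 of 1122 olfactory receptor genes, 5 of 328 vomeronasal receptor genes, 0 of 38 taste receptor genes, 4 of 52 keratin genes, 0 of 52 keratin-associated protein genes, 7 of 43 beta-defensin genes, 5 of 73 cytochrome P450 genes, 4 of 39 Hox genes and 1 of 31 X-linked Rhox genes (0 by replicate 2 alone). A few members stood out. Vmn1r181, a vomeronasal receptor gene, had 64.1 and 35.9 TPM. The patterning genes Hoxa4 and Hoxd8 had 53.2 and 60.1 TPM and 34.9 and 30.1 TPM, the keratin gene Krt10 had 50.7 and 41.03 TPM and the vitamin D hydroxylase gene Cyp2r1 had 31.7 and 33.3 TPM. No olfactory receptor gene had a mean above 10 TPM, and the highest, Olfr31, had 5.51 and 4.63 TPM.

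Stress and culture lists were read because the cells had been cultured for 24 h. Immediate early genes, which rise within minutes of a stimulus, were low, with 2 of 11 above 1 TPM and the highest, Ier3, at 2.27 and 3.34 TPM. Fos had 0 and 0.0828 TPM and Egr1 had 0.161 and 0.0847 TPM. Of 14 heat shock genes, 11 were above 1 TPM (78.6%, against 40.6% of all symbols). Hsp90aa1 had 1229 and 1341 TPM, a level like that of Hspa2. The HSP70 cochaperone gene Hspa4l had 173 and 159.9 TPM, but the inducible Hspa1a was listed at 0 and Hspa1b had 0.0353 and 0 TPM. Of 12 targets of p53, 4 were above 1 TPM (33.3%, near the 40.6% of all symbols). Mdm2 had 68.2 and 67.99 TPM and Bax had 14.03 and 21.8 TPM, whereas Cdkn1a, the p21 gene, had 0.294 and 0.599 TPM. In the integrated stress response, 6 of 12 genes were above 1 TPM (50%). Ddit3, which encodes CHOP, had 417 and 446 TPM. Its relatives in the pathway did not share this level, with Atf4 at 28.04 and 31.7 TPM, Chac1 at 2.71 and 0.828 TPM and Trib3 listed at 0. Whether culture set any of these levels was not tested.

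The autosomes and the sex chromosomes differed widely in how many genes were on. Chromosomes were taken from GENCODE and RefSeq annotation, and 31 expressed genes could not be placed. Of 22213 autosomal genes, 9423 were above 1 TPM (42.4%), with 34.1% on chromosome 7 as the lowest share and 50.1% on chromosome 5 as the highest. Without the olfactory and vomeronasal receptor genes, which crowd on a few chromosomes, the autosomal shares ran from 40.1% to 50.5%. On the X chromosome 53 of 1034 genes were above 1 TPM (5.13%) and 735 were listed at 0 in both libraries. On the Y chromosome 2 of 45 genes were above 1 TPM, Eif2s3y with 2.35 and 0.196 TPM and Gm20871 with 2.04 and 0.427 TPM. The 1034 X-linked genes summed to 362 TPM in replicate 1 and 293 TPM in replicate 2, or 0.0328% of all TPM, and each autosome held from 2.88% to 9.31%. The expressed X-linked genes had a median of 1.91 TPM and the expressed autosomal genes a median of 11.5 TPM.

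**Figure D4:**
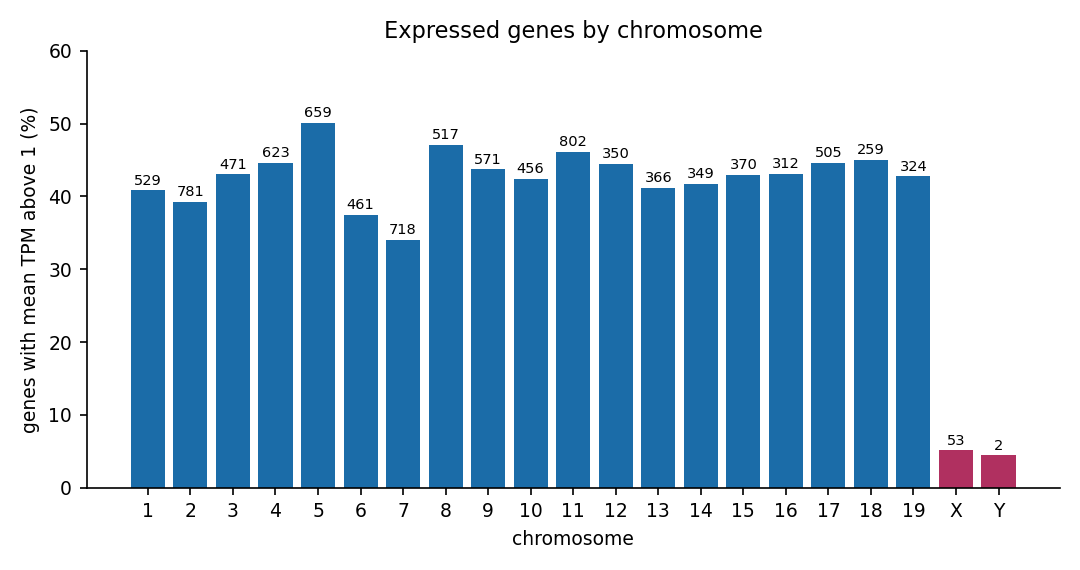
Percent of the genes of each chromosome with a mean Ctrl TPM above 1 (bars), with the number of such genes above each bar. The 19 autosomes lie between 34.1% and 50.1%, and the X and Y chromosomes at 5.13% and 4.44%.

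A single gene made up much of the X-linked signal. Ndufa1, a subunit of complex I, had 124 and 152 TPM, from 619 and 867 reads, and held 42.3% of the X-linked TPM. It was the 1 X-linked gene with a mean above 10 TPM, and is named because its value stood out. Without it the X chromosome summed to 238 TPM and 141 TPM. The other X-linked subunit gene of complex I in the family, Ndufb11, had 0.465 and 0.407 TPM. Of the 53 X-linked genes above 1 TPM, 24 were at least 2-fold higher in replicate 1 (3.91% of all expressed genes were) and 3 in replicate 2 (1.86% of all). Most of them lay between 1 and 10 TPM, where few reads stand behind a value and the SD of the log2 ratio over all genes was 0.62. Only 24 of the 53 were above 1 TPM in each library. The others passed the mean through 1 library, so their difference between the libraries is partly set by the threshold. The shares over all expressed genes cover all levels and are not matched to these low levels. The count was 67 in replicate 1 alone and 37 in replicate 2 alone. The late sperm genes above that were 2-fold apart were also higher in replicate 1, and the relation was not tested.

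Autosomal copies of X-linked genes were the higher gene in most pairs of this kind. Of 17 pairs listed, the autosomal gene was the higher one in each library in 15, and was above 10 TPM in 13. Of the X-linked partners, 7 were listed at 0 in both libraries and 2 had a mean above 1 TPM, with 1.67 TPM as the highest mean. The largest difference in TPM was between Cetn1 (6838 and 5555 TPM), on chromosome 18, and Cetn2, listed at 0. Rpl10l, on chromosome 12, had 897 and 1194 TPM against 1.37 and 1.96 TPM for the ribosomal protein gene Rpl10, and Rpl39l, on chromosome 16, had 1030.5 and 979 TPM against 0 for Rpl39. Ube2b, whose ubiquitin-conjugating product acts on spermatocyte chromatin, had 584 and 686 TPM against 0.777 and 0 TPM for Ube2a. Prps1l1, for the synthesis of nucleotide precursors, had 249.6 and 188 TPM against 0.853 and 1.01 TPM for Prps1. In energy metabolism, Pdha2 on chromosome 3 was expressed and Pdha1 was listed at 0, and Pgk1 had 1.82 and 0.529 TPM beside the much higher Pgk2. Slc25a5 had 0 and 0.4202 TPM against the values given above for Slc25a31.

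The other partners ran at middle levels. D1Pas1 had 82.4 and 71.4 TPM against 0.108 and 0.114 TPM for the helicase gene Ddx3x. Cstf2t (78.5 and 69.5 TPM) and Mcts2 (77.9 and 69.5 TPM), of messenger RNA processing and translation, and Rnf113a2 (48.4 and 37.97 TPM) had partners listed at 0. Tktl2 had 19.8 and 19.98 TPM against 0 and 0.386 TPM for Tktl1, and Rbmxl2 had 4.11 and 5.3004 TPM against 0 and 0.162 TPM for Rbmx. Some pairs did not show this pattern, or showed it at a low level. Ubl4b (2.88 and 0.882 TPM) and Ubl4 (1.07 and 0.449 TPM) were both low, Utp14b (0.398 and 0.174 TPM) and Utp14a (0.52998 and 0.107 TPM) did not differ in a constant direction, and G6pdx and G6pd2 were both listed at 0. Retrocopies resemble their parents, and with unique alignments a part of the reads of such a pair can be lost from either gene.

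**Figure D5:**
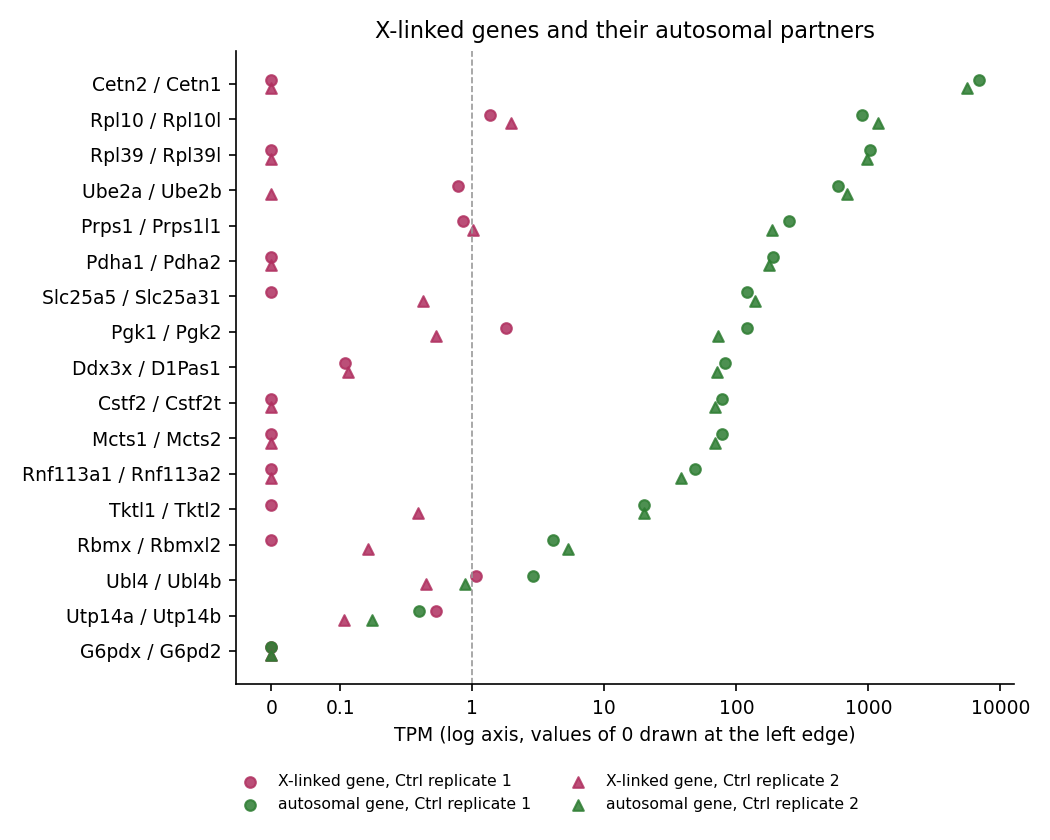
TPM (log axis) of the X-linked gene (red) and its autosomal partner (green) in 17 pairs, with circles for Ctrl replicate 1, triangles for Ctrl replicate 2, values of 0 at the left edge and a dashed line at 1 TPM. In 15 pairs each green point lies to the right of the red point of the same library, and the markers of G6pdx lie under those of G6pd2 at 0.

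Upstream sequence differed between expressed and silent genes. In the 250 bases before the start, expressed protein-coding genes had a median of 16 CG dinucleotides and genes listed at 0 had 3, with 10 in the genes above 0 and up to 1 TPM. It was not highest in the highest genes, at 15 from 1 to 10 TPM, 17 from 10 to 1000 TPM and 14 above 1000 TPM. The letters CCGGAAG, read on either strand and part of the sequence bound by ETS factors, were in 17.0% of expressed and 2.07% of zero-listed genes, and in 9.51% of all 16338. The letters TATAAA, the TATA box, went the other way, with 6.31% of expressed genes, 21.7% of genes listed at 0 and 12.1% of all. TGACGT, the core of the site of CREB family proteins, was in 11.1% of expressed genes and in 7.88% of all, but in 4.61% of the 152 genes above 1000 TPM. AACGG was in 9.51% of the genes listed at 0, in 20.5% from 1 to 10 TPM and in 27.0% above 1000 TPM. The letters for ETS, CREB and MYB proteins each contain the CG dinucleotide, and the TATA box does not. Their shares can therefore follow the CG count. Whether these shares, or those given with the markers, differ beyond the CG count was not tested.

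The expressed lists did not share 1 kind of upstream sequence. The median CG count was 14.5 over 12 synaptonemal complex genes and 18 over 15 piRNA genes, but 2 over 8 chromatin packaging genes and 2 over 11 genes of the fibrous sheath and outer dense fibers, below the median of 3 of the genes listed at 0. AACGG was in 8 of the 15 piRNA genes, 10 of 25 axoneme genes and 4 of 12 synaptonemal complex genes, and in none of the 8 packaging genes, of which 3 held TATAAA. The ETS letters given above were in none of the synaptonemal complex, piRNA and packaging genes counted here. The lists are short, the letters were chosen after the sequences were seen, and no match says that a factor was bound. Matches in the lists were not compared at equal CG counts.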

How the data were processed

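The authors trimmed paired reads with Trimmomatic 0.39, aligned them to GRCm38 (mm10) with STAR 2.5.4b, kept unique alignments, counted reads on genes with featureCounts 2.0.1 and deposited TPM for each library. Unique alignment lowers genes with near-identical copies, and strand use is not given in the sources used here. Libraries were made from total RNA with the NEBNext Single Cell/Low Input kit. The labels give a culture temperature of 34 °C and the methods 32 °C.

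The columns Ctrl replicate 1 and 2 were used. Per the methods, the 2 replicates are independent experiments, and in an experiment the cells of 1 mouse were divided between the conditions. No column belonged to samples of another series. The 92 lines without a symbol were left out. Reads and gene lengths were recovered from the deposited TPM of all 4 libraries, since a gene's length is shared. All 16857 genes above 0 in any library gave whole reads, and 16839 gave whole lengths within 0.01. A common factor cannot be seen in TPM. The reads of 1756 genes were multiplied to make the length whole, and 484 genes were raised to a multiple that matches annotated lengths. The step was tested on simulated data, where most but not all genes were recovered exactly, so reads and lengths are estimates.

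Genes were expressed with a mean above 1 TPM. Log2 ratios used log2(TPM + 1). No test was made, since there is 1 group of 2 libraries. Symbols were placed by GENCODE vM21 (21777), a RefSeq symbol (211) or synonym (1305), and 127 were not placed. Members missing under their symbol were matched by RefSeq synonym. Ankrd31, Rnf212, Shoc1, Fsip2, Catspere1, Hbb-bt and Zfa were not analysed here. The values of some list members are not reported here. Upstream sequences came from RefSeq (GRCm38.p6) and matched 7210 of 8806 expressed protein-coding genes.

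The members and lists were chosen with earlier results of these data known, and the family of complexes III, IV and V and the searched letters were added later. The genes named are the 30 highest, the 5 markers, members of fixed lists of up to 26 genes, the 5 highest of families by symbol, both genes of each X-linked pair and the 10 largest log2 ratios toward each library above 10 TPM. Exceptions chosen after their values were seen are said to be so, or are Ndufb11, Ndufa1, Eif2s3y and Gm20871. Alternatives were other thresholds (0.5 and 5 TPM, and above 1 TPM in each library), each library alone, shares of reads, leaving out small RNA genes, a pseudocount of 0.1 and no filter. The software was numpy 2.4.6, scipy 1.17.1 and pandas 2.3.3 under Python 3.11.15.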

Additional observations from a re-analysis of the deposited data

How the results depend on the processing

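No paired analysis was possible because the results come from no test and from 1 group. The number of expressed genes stayed within 1.5 times of 9509 under each threshold tried (6437 to 10659) and was 9290 to 9579 with 1 library left out. Members of the programmes that are on numbered 234 of 275, and 231 to 234 with 1 library left out. Members of the silent programmes above 1 TPM numbered 46 of 1876, 38 to 49 with 1 library left out and 12 above a mean of 5 TPM. The number of X-linked genes on depended on the threshold. It was 53 with a mean above 1 TPM, 24 above 1 TPM in each library, 94 above a mean of 0.5 TPM and 5 above 5 TPM, and 37 to 67 with 1 library left out. The 100 highest genes held 33.6% of TPM, 33.0% to 34.3% with 1 library left out, 33.6% without genes for small RNAs and 25.1% of the reads. With 1 library left out, the autosomal gene was higher in 15 to 16 of the pairs. Genes 2-fold apart between the libraries numbered 549, and 946 with a pseudocount of 0.1, which gives low values more weight. The testis-specific serine kinases, 4 of 6 above 1 TPM, had 0 above 5 TPM. Of 35 lists and families, 21 kept their count within 1.5 times above 5 TPM and 30 when each library had to pass. Depth limits the low end, where 1 or 2 reads set a value.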

Other observations

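Long non-coding RNAs and genes known by clone names were a visible part of the Ctrl libraries. Of the genes above 1 TPM, 517 were annotated as long non-coding RNA of some kind (lincRNA, antisense, processed transcript and similar classes), with a median of 6.96 TPM and 2.73% of the TPM. The highest were Gm3925 (5650.0 and 4937 TPM), 1700008K24Rik (3901 and 3158 TPM), the antisense gene Gm11837 (1161 and 1222 TPM) and the snoRNA host gene Snhg3 (1286 and 945 TPM), the last 2 named after their values were seen. Strand use in the counting is not given in the sources used here, so antisense genes cannot be separated from their partners. Of these 517 genes, 68 were at least 2-fold higher in replicate 1 (13.2%, against 3.91% of all expressed genes) and 8 in replicate 2 (1.86% of all). The 795 expressed genes named by Riken clones, of 1598 listed (49.7%, against 40.6% of all symbols), held 6.71% of the TPM. They include genes annotated as protein-coding, among them the highest, 4732415M23Rik. Of the 795, 122 were at least 2-fold higher in replicate 1 (3.91% of all expressed genes were) and 13 in replicate 2 (1.86% of all). Why the libraries differed in these genes was not tested.

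Some further families were described by their symbols alone. The proteasome core genes had 16 of 19 members above 1 TPM with a median of 371 TPM. The meiotic core subunit gene Psma8 had 542 and 673 TPM and Psma7, the subunit whose place it can take, had 104 and 165 TPM. Of the immune subunit genes, Psmb8 and Psmb9 were listed at 0, but Psmb10 had 21.2 and 35.8 TPM. Psma7, Psmb8, Psmb9 and Psmb10 are named after their values were seen. Of the Tex genes, named for expression in the testis, 21 of 25 were above 1 TPM, led by Tex40, Tex30 (2355 and 2488 TPM) and Tex101 (524 and 959 TPM). Of the Spata genes, 18 of 26 were, led by Spata24 (2259.9 and 1791 TPM) and Spata4 (1480.0 and 1403 TPM). Short RNAs were little seen, with 40 of 663 microRNA genes and 29 of 110 snoRNA genes above 1 TPM and 0 of 5 small nuclear RNA genes, all 5 listed at 0. Whether the library method captures short RNAs is not given in the sources used here, so these counts describe the libraries and not the cells. Of these 29 snoRNA genes, 5 were at least 2-fold higher in replicate 1 and 14 in replicate 2 (3.91% and 1.86% of all expressed genes were). All 110 together had 111 and 146 reads, so 1 or 2 reads decide many of these differences.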
